A study of Rattus norvegicus with 15 samples.

Results

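Adult rat cardiomyocytes that had spent 6 h in culture with saline, the vehicle of the in vitro arm of the study, were compared with cardiomyocytes from age-matched control hearts, the reference of its in vivo arm. Both groups were free of doxorubicin (DOX) and of myocardial infarction (MI). The members were chosen by their labels alone and make up 6 of the 15 samples, 3 vehicle and 3 control. The study profiled microRNAs (miRNAs) of cardiac muscle cells damaged by DOX, an anthracycline used against cancer, or by MI. Its other samples were cells given DOX in vitro for 6 h, cells of rats with heart failure after repeated DOX injections, and cells taken 4 weeks after MI, 3 samples each. All cells came from Sprague Dawley rats. Vehicle cells came from healthy adult rats and were kept in M199 medium with saline for 6 h. Control cells came from healthy rats whose ages matched those of the in vivo models, and they were not given the 6 h treatment. After treatment or isolation, cells of every group were plated for 1 h on laminin, unattached cells were discarded, and RNA was taken from the attached cells with TRIzol, so the control cells were not without time on a dish. The labels state neither an age in either group nor whether samples of a group came from separate rats or cultures. Culture, age and the rats used therefore cannot be told apart in this comparison. The p-values take in no more than the spread from sample to sample within groups, in the main test that of all 5 groups.

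A miRNA is a short RNA that guides a silencing complex to messenger RNAs, mainly through its seed, bases 2 to 8 from the 5′ end, and lowers their translation or stability. Adult heart muscle is rich in a small set of muscle miRNAs, among them miR-1, miR-133a and miR-499, while others are typical of endothelial cells, fibroblasts, smooth muscle or leukocytes that share the tissue. Enzymatic isolation and plating of adult cardiomyocytes are known to disturb the cells, which lose contact with neighbours and load. Levels were read with the nCounter assay, which joins each miRNA to a sequence tag and counts tagged molecules by a coloured barcode, with no amplification. They are given as CPM, counts set against the lane's total of rat miRNA counts and expressed per 1000000, after TMM scaling, a scaling on the shared bulk of miRNAs. A CPM is therefore a share of the miRNAs counted, not an amount per cell, and probes of different miRNAs need not count with the same efficiency.

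Mature sequences of the 9 miRNAs called higher in vehicle cells are shown because they carry the comparison, and their seeds show whether any of them belong to a shared family. Sequences are RefSeq's on the rat build GRCr8, 5′ to 3′, with the seed in capitals. Of the 109 miRNAs tested, 87 matched a RefSeq miRNA, 25 by the exact name and 62 by the guide arm of an older name without an arm.
miR-1949: uAUACCAGgaugucagcauaguu
miR-126: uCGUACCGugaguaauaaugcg
miR-146a: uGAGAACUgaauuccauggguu
miR-199a-3p: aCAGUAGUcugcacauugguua
miR-450a: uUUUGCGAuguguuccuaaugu
miR-322: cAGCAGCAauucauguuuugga
miR-199a-5p: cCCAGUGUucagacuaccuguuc
miR-338: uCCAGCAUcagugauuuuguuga
miR-140: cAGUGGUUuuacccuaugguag
All 9 seeds differ from each other. miR-322 alone among them has a seed shared with other tested miRNAs, AGCAGCA, that of the miR-15 family. The second set is shown because these miRNAs are near copies of each other or lie opposite each other in the genome, while their levels differed between the groups by different amounts.
let-7a: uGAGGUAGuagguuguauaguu
let-7e: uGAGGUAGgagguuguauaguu
let-7f: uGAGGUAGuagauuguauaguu
miR-3596c: aCUAUACAaccuccuaccuca
miR-1: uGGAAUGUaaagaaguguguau
miR-3571: uACACACUucuuuacauuccaua
miR-103: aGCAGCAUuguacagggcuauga
miR-107: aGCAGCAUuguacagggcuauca
Counted from the 5′ end of let-7a, let-7f differs from it by G12A and let-7e by U9G. miR-107 differs from miR-103 by G22C. miR-3596c is annotated on the strand opposite let-7e and miR-3571 on the strand opposite miR-1, and each pair is complementary over 21 bases.

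The 6 samples had neighbouring lane numbers, controls 4 to 6 and vehicle 7 to 9, so lane position and group cannot be told apart. The deposited lane names give all 6 the same number, taken here to be that of the cartridge. Control lanes held 36977 to 62663 miRNA counts and vehicle lanes 122854 to 137746. The summed positive controls, spiked at fixed amounts, were 10053 to 18360 in control lanes and 21124 to 24037 in vehicle lanes, and the miRNA count per positive-control count was 3.41 to 3.68 against 5.73 to 5.86, 1.65 times as high in vehicle lanes (exact permutation test, two-sided, p = 0.1, the smallest that 3 against 3 allows). Whether this ratio reflects more miRNA per cell or more RNA loaded was not tested. The number of miRNAs above the lane background, set at the mean plus 2 SD of the 8 negative controls, was 81 ± 6.56 in control and 101 ± 7 in vehicle lanes (SD, n = 3 each; exact permutation test, two-sided, p = 0.1). The negative controls stood at 208 ± 21.7 CPM in control and 118 ± 5.49 CPM in vehicle lanes (SD, n = 3 each), so a probe at background read lower on this scale in vehicle lanes. Among the 4 housekeeping mRNA probes, relative to miRNA counts, Actb was 2.15 times and B2m 1.71 times as high in vehicle as in control lanes, while Gapdh (1.01 times) and Rpl19 (0.875 times) overlapped. Pairs of lanes within a group gave a chi-square, divided by its degrees of freedom, of 1.60 to 1.74 in vehicle and 1.56 to 1.89 in control, little above counting error.

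Of 109 miRNAs tested, 20 (18.3%) were called at an adjusted p under 0.05 by edgeR's quasi-likelihood test with Benjamini-Hochberg adjustment, 9 of them higher (8.26%) and 11 lower (10.1%) in vehicle cells. The median log2 difference of all 109 was -0.11. The 3 vehicle lanes and the 3 control lanes did not overlap for 73 miRNAs (67%), higher in vehicle for 33 (30.3%) and lower for 40 (36.7%), among them all 20 called, so most non-overlapping miRNAs were not called. An unadjusted p under 0.05 was reached by 33 (30.3%). The fit took its spread from all 15 lanes. The median SD of log2(CPM + 1) over the tested miRNAs was 0.113 in vehicle and 0.179 in control lanes, and 0.291 to 0.457 in the 3 other groups. With the 6 lanes alone, 67 miRNAs were called, 33 higher and 34 lower, the 20 among them. That fit rests on lanes that differed within a group by little more than counting error and need not be separate rats or cultures. Leaving out a lane lowered the count of calls to 4 without control lane 1, 5 without vehicle lane 2, 10 without control lane 3, 11 without vehicle lane 1 and 12 without vehicle lane 3, against 18 without control lane 2. The 9 higher miRNAs were found at low and high levels, whereas 10 of the 11 lower ones had a mean level of both groups under 1000 CPM. The fitted folds of the 9 higher miRNAs ran from 2.14 for miR-140 to 4.26 for miR-1949.

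**Figure D1:**
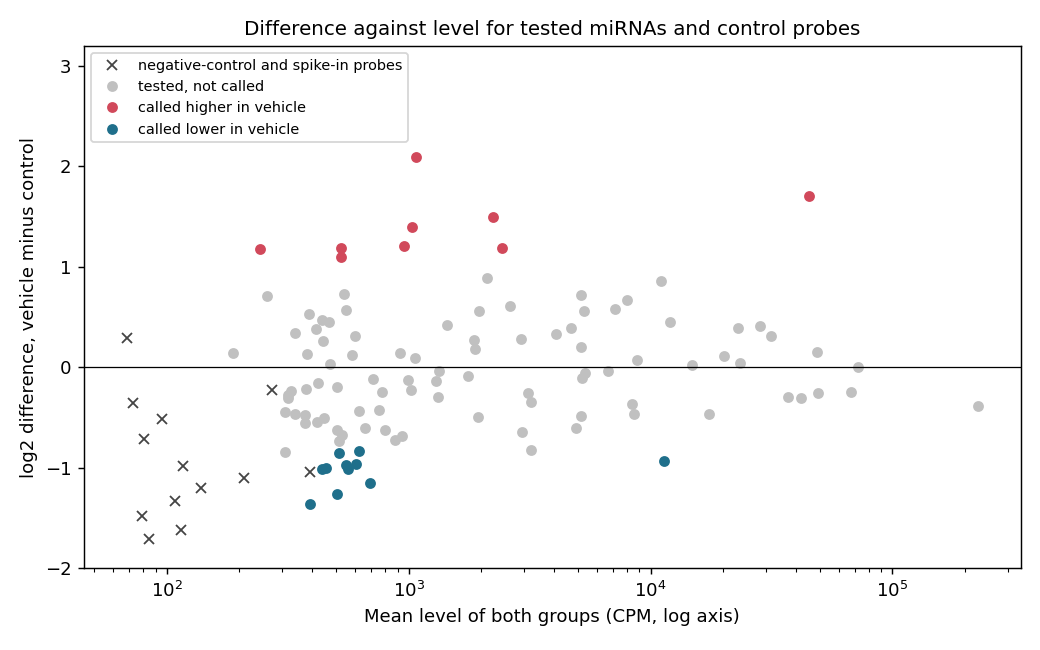
Log2 difference (vehicle minus control) against the mean level of both groups in CPM (log axis) for the 109 tested miRNAs and 13 control probes. Red points are the 9 miRNAs called higher and blue points the 11 called lower; the crosses, 8 negative-control and 5 spike-in probes, had a median of -1.05, close to the blue points at the dim end.

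The level of miR-126, which lies in the gene of the endothelial factor Egfl7 at chr3:29813219-29813240 (+ strand) and is a widely used marker of endothelial cells, was 20104, 21447 and 22102 CPM in control lanes 1 to 3 and 66721, 69801 and 70808 CPM in vehicle lanes 1 to 3. Its vehicle lanes were all far above its control lanes, with little spread in either group. Its level was 3.26-fold higher in vehicle cells (log2 1.70, SE 0.31, adjusted p = 4.47e-04), and miR-126 made up 7.13% of the vehicle and 2.11% of the control counts. The other tested member of the endothelial list, miR-10a-5p, a miRNA of a Hox cluster, differed by log2 0.03 (SE 0.32, adjusted p = 0.941). It was above background in 0 control and 3 vehicle lanes, and with background subtraction its log2 difference was 0.40 (adjusted p = 0.58), so its size is not settled. The endothelial miR-31 lay near background with at most 23 counts in any of the 6 lanes. In such bulk samples, fewer cells of a type and less of an RNA per cell cannot be told apart.

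miR-146a, a miRNA induced by NF-kappaB signalling that restrains the adaptors Traf6 and Irak1, stood at 1293, 937 and 1304 CPM in control lanes 1 to 3 and 3176, 3445 and 3302 CPM in vehicle lanes 1 to 3. The lowest vehicle lane was far above the highest control lane. It was 2.81-fold higher in vehicle cells (log2 1.49, SE 0.35, adjusted p = 0.00611) and maps to chr10:28350053-28350074 (- strand), outside protein-coding genes. It is also on the leukocyte list, of which miR-150, a miRNA of mature lymphocytes, differed by log2 0.72 (SE 0.61, adjusted p = 0.448) and miR-342-3p by log2 0.48 (SE 0.50, adjusted p = 0.531). miR-342-3p was above background in 0 control and 3 vehicle lanes. Its log2 difference was 1.24 with background subtraction (adjusted p = 0.212), and it was called higher with positive-control scaling (adjusted p = 0.0398). The myeloid and pan-leukocyte miRNAs miR-223, miR-142-3p and miR-142-5p were not tested, and had 5 to 21 counts in control lanes and 16 to 36 in vehicle lanes.

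Both arms of the miR-199a hairpin rose. This hairpin is expressed in fibroblasts and other mesenchymal cells, and in cardiomyocytes miR-199a is known to respond to oxygen and to act on Hif1a. miR-199a-3p, at chr13:77116294-77116315 (+ strand) within the span of Dnm3, had 550.0, 635 and 518 CPM in control lanes 1 to 3 and 1466, 1503 and 1524 CPM in vehicle lanes 1 to 3. The vehicle lanes lay close together and none came near a control lane. It was 2.63-fold higher in vehicle cells (log2 1.39, SE 0.28, adjusted p = 0.00148). miR-199a-5p, 17 bases away in the same hairpin, had 303, 302 and 351 CPM in control lanes 1 to 3 and 754, 774 and 659 CPM in vehicle lanes 1 to 3, again without overlap. It was 2.27-fold higher in vehicle cells (log2 1.19, SE 0.33, adjusted p = 0.0141), but all 3 control lanes were below background, so its control level cannot be told apart from background. Without vehicle lane 2 or control lane 1 its adjusted p was 0.0602 and 0.0556.

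miR-322, the rodent counterpart of human miR-424 and a member of the miR-15 family by its seed, and miR-450a lie 5192 bases apart on the X chromosome, at chrX:137726198-137726219 (- strand) and chrX:137720985-137721006 (- strand). miR-322 had 1568, 1366 and 1521 CPM in control lanes 1 to 3 and 3308, 3277 and 3548 CPM in vehicle lanes 1 to 3. It was 2.28-fold higher in vehicle cells (log2 1.19, SE 0.38, adjusted p = 0.0306). miR-450a had 523, 556 and 652 CPM in control lanes 1 to 3 and 1389, 1394 and 1246 CPM in vehicle lanes 1 to 3. It was 2.31-fold higher in vehicle cells (log2 1.21, SE 0.33, adjusted p = 0.0141), and the groups overlapped for neither. miR-450a was above background in 1 control lane, and with background subtraction its log2 difference was 1.65, against 1.28 for miR-322 (adjusted p = 0.0156 and 0.0797). Leaving out any 1 of the 6 lanes took miR-322 over the threshold (adjusted p = 0.0653 to 0.105), and leaving out vehicle lane 2 or control lane 1 did so for miR-450a (0.0602 and 0.0688). The other 3 members of the cluster on the panel, miR-503, miR-351 and miR-542-3p, were not above background often enough to be tested.

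Among the called miRNAs, the TMM-scaled fit gave the largest fold to miR-1949, a rat miRNA at chr18:27429753-27429775 (+ strand) within the span of Matr3. Its levels were 550.0, 397 and 301 CPM in control lanes 1 to 3 and 1829, 1744 and 1619 CPM in vehicle lanes 1 to 3, or 20, 25 and 18 counts in control lanes and 262, 239 and 204 in vehicle lanes before scaling. It was above background in every vehicle lane and in 1 control lane, so the size of its fold depends on background. It was 4.26-fold higher in vehicle cells (log2 2.09, SE 0.31, adjusted p = 3.44e-05). Its log2 difference stayed between 1.68 and 2.94 in the 22 alternatives that tested it, and it was called in each.

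miR-140, best known from cartilage and located within the span of Wwp2, had 220.0, 461 and 301 CPM in control lanes 1 to 3 and 900.3, 635 and 635 CPM in vehicle lanes 1 to 3. Control lane 2 was the nearest to the vehicle lanes. It was 2.14-fold higher in vehicle cells (log2 1.10, SE 0.35, adjusted p = 0.0301). miR-338, which lies within the span of the neuronal kinase gene Aatk, had 110.0, 159 and 167 CPM in control lanes 1 to 3 and 293, 350.3 and 381 CPM in vehicle lanes 1 to 3, and was 2.27-fold higher in vehicle cells (log2 1.18, SE 0.39, adjusted p = 0.0306). Neither was above background in any control lane, so neither fold is exact. Of all 15 lanes, miR-140 was above background in 5, 3 of them vehicle, and miR-338 in 4, 2 of them vehicle. Testing required 3 such lanes, which each reached only with its vehicle lanes counted. Both thus entered the test through the group in which they were higher. With background subtraction the log2 difference of miR-338 was 7.29 (adjusted p = 0.0797), past that of miR-1949 (2.94), and that of miR-140 was 2.15 (adjusted p = 0.113). Each rested on few molecules, 8, 29 and 18 counts in control lanes and 129, 87 and 80 in vehicle lanes for miR-140 and 4, 10 and 10 counts in control lanes and 42, 48 and 48 in vehicle lanes for miR-338. The calls of both were lost in several leave-one-out fits, of miR-338 in each (adjusted p = 0.0537 to 0.114) and of miR-140 without vehicle lane 1 or 2 or control lane 1 or 3 (0.0642 to 0.128).

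**Figure D2:**
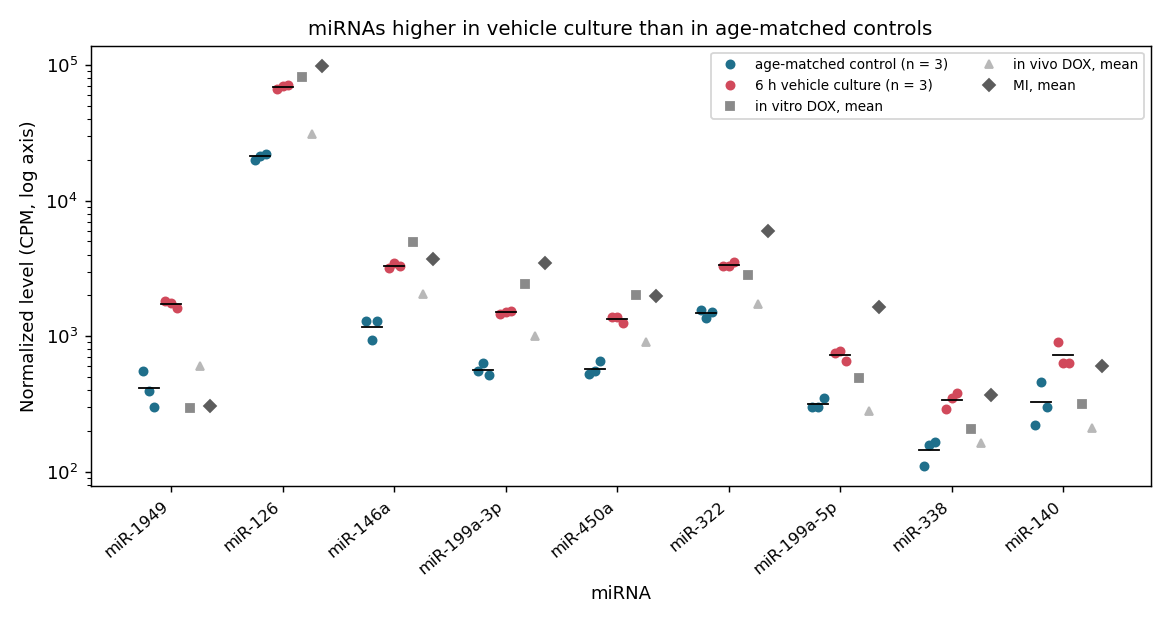
Level in CPM (log axis) of the 9 miRNAs called higher in vehicle cells, with a point for each of 3 control (blue) and 3 vehicle (red) lanes and a bar at each mean; grey symbols are the means of the DOX and MI groups. The control and vehicle lanes do not overlap for any of the 9, and of the 5 group means that of vehicle cells is the highest for miR-1949 and miR-140.

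Among the lower miRNAs, let-7f was the one at a high level. The let-7 family is abundant in differentiated cells, where it represses growth-promoting mRNAs. let-7f had 19169, 13011 and 12572 CPM in control lanes 1 to 3 and 6833, 8554 and 8095 CPM in vehicle lanes 1 to 3. The lowest control lane was well above the highest vehicle lane, although control lane 1 stood apart from the other controls. It was 1.90-fold lower in vehicle cells (log2 -0.93, SE 0.27, adjusted p = 0.0171). Without control lane 1 its adjusted p was 0.15, and without each vehicle lane in turn it was 0.0606 to 0.0905. RefSeq has let-7f at 2 places, chr17:16320508-16320529 (+ strand) and, within the span of Huwe1, chrX:24460052-24460073 (+ strand), and the probe cannot tell their products apart.

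miR-103, in the span of the pantothenate kinase gene Pank2 and studied for its action on insulin sensitivity, had 1045, 794 and 585 CPM in control lanes 1 to 3 and 412, 379.5 and 429 CPM in vehicle lanes 1 to 3, without overlap. It was 1.95-fold lower in vehicle cells (log2 -0.97, SE 0.28, adjusted p = 0.0171). Its near copy miR-107, which differs at base 22, differed by log2 -0.62 (SE 0.26, adjusted p = 0.0971) and was not called. Without control lane 1 the adjusted p of miR-103 was 0.138, and it was 0.0515 and 0.0655 without vehicle lane 1 or 2. With background subtraction it was 0.0797. Before scaling, miR-103 had 35 to 50 counts in control lanes and 52 to 59 in vehicle lanes.

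Like miR-103, the other 9 lower miRNAs were dim. miR-466d, from a rodent repeat cluster within the span of Sfmbt2, had 578, 619.6 and 502 CPM in control lanes 1 to 3 and 216, 226 and 214 CPM in vehicle lanes 1 to 3, and was 2.57-fold lower in vehicle cells (log2 -1.36, SE 0.33, adjusted p = 0.00737); no vehicle lane was above background. miR-421, above background in 2 control lanes and 1 vehicle lane, had 880.1, 524 and 752 CPM in control lanes 1 to 3 and 307, 307 and 269.8 CPM in vehicle lanes 1 to 3, and was 2.40-fold lower in vehicle cells (log2 -1.26, SE 0.38, adjusted p = 0.0216). miR-3594-3p had 990.1, 1001 and 869 CPM in control lanes 1 to 3 and 503, 350.3 and 429 CPM in vehicle lanes 1 to 3, and was 2.22-fold lower in vehicle cells (log2 -1.15, SE 0.32, adjusted p = 0.0141). The groups overlapped for none of the 3, whose lowest control lanes were 502, 524 and 869 CPM. Without control lane 1 each lost its call (adjusted p = 0.0556 to 0.138), and without vehicle lane 2 miR-421 and miR-3594-3p did (both 0.0655); miR-421 also missed the threshold without vehicle lane 1 or 3 or control lane 3 (0.0537 to 0.0896).

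miR-598-5p had 743, 651 and 853 CPM in control lanes 1 to 3 and 398, 307 and 405 CPM in vehicle lanes 1 to 3, and was 2.02-fold lower in vehicle cells (log2 -1.02, SE 0.28, adjusted p = 0.0141). miR-501, of an X-linked cluster, had 578, 540.2 and 652 CPM in control lanes 1 to 3 and 342, 285 and 246 CPM in vehicle lanes 1 to 3, and was 2.02-fold lower in vehicle cells (log2 -1.01, SE 0.30, adjusted p = 0.0216). miR-628, within the span of Ccpg1, had 578, 763 and 652 CPM in control lanes 1 to 3 and 412, 292 and 405 CPM in vehicle lanes 1 to 3, and was 1.81-fold lower in vehicle cells (log2 -0.86, SE 0.28, adjusted p = 0.0306). In each of the 3 all vehicle lanes were below all control lanes. miR-544, of the imprinted Dlk1-Dio3 cluster, had 825, 667 and 919.5 CPM in control lanes 1 to 3 and 530.4, 416 and 397 CPM in vehicle lanes 1 to 3, and was 1.79-fold lower in vehicle cells (log2 -0.84, SE 0.27, adjusted p = 0.0306). Its groups did not overlap. The antisense miR-3571 and miR-3596c were lower too, again without overlap. miR-3571 had 440.0, 556 and 819 CPM in control lanes 1 to 3 and 328, 307 and 286 CPM in vehicle lanes 1 to 3, and was 2.0-fold lower in vehicle cells (log2 -0.999, SE 0.32, adjusted p = 0.0278). miR-3596c had 853, 572 and 769 CPM in control lanes 1 to 3 and 321, 372 and 413 CPM in vehicle lanes 1 to 3, and was 1.96-fold lower in vehicle cells (log2 -0.97, SE 0.30, adjusted p = 0.0216). Their partners on the opposite strand, miR-1 and let-7e, differed by log2 -0.39 (SE 0.23, adjusted p = 0.266) and log2 0.61 (SE 0.28, adjusted p = 0.153). In another such pair, let-7f and miR-3596d, complementary over 20 bases, miR-3596d differed by log2 -0.45 (SE 0.32, adjusted p = 0.36) and was not called. The difference within a pair was not tested. miR-3571 was above background in 1 control and 1 vehicle lane, miR-501 in 2 and 1, and miR-3596c in 2 and 2, so their levels lay mostly near background and their folds are not exact. Without control lane 1, and likewise without vehicle lane 2, each of these 6 lower miRNAs missed the threshold (adjusted p = 0.0688 to 0.138 and 0.0655 to 0.164). All 6 but miR-3596c and miR-598-5p also did so without vehicle lane 3 (0.0778 to 0.129), all 6 without control lane 3 (0.0893 to 0.234), miR-628, miR-3571 and miR-3596c without vehicle lane 1 (0.0613 to 0.0905), and miR-628 without control lane 2 (0.161).

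Before scaling, the 10 lower miRNAs other than let-7f had 16 to 63 counts per control lane and 27 to 76 per vehicle lane, and the counts of the groups overlapped for 9 of the 10. Lane backgrounds were 19.6 to 36.2 counts in control and 33.3 to 47.2 in vehicle lanes. The 13 negative-control and spike-in probes, none of which is a probe for a rat miRNA, differed by a median log2 of -1.05 (from -1.71 to 0.29), and 12 of the 13 were lower in vehicle. The median of the 11 lower miRNAs was -0.999, and that of the 311 untested miRNAs -0.72. With the negative-control mean subtracted from each lane, let-7f alone of the 11 lower miRNAs passed the test (log2 -1.01, adjusted p = 0.0156), and 6 of the 9 higher ones did. With scaling on the positive controls 0 of the 11 passed (edgeR; 0 lower miRNAs at an unadjusted p under 0.05 as well) and their log2 differences lay between -0.53 and -0.01. With DESeq2, 6 of the 11 and all 9 higher miRNAs passed.

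**Figure D3:**
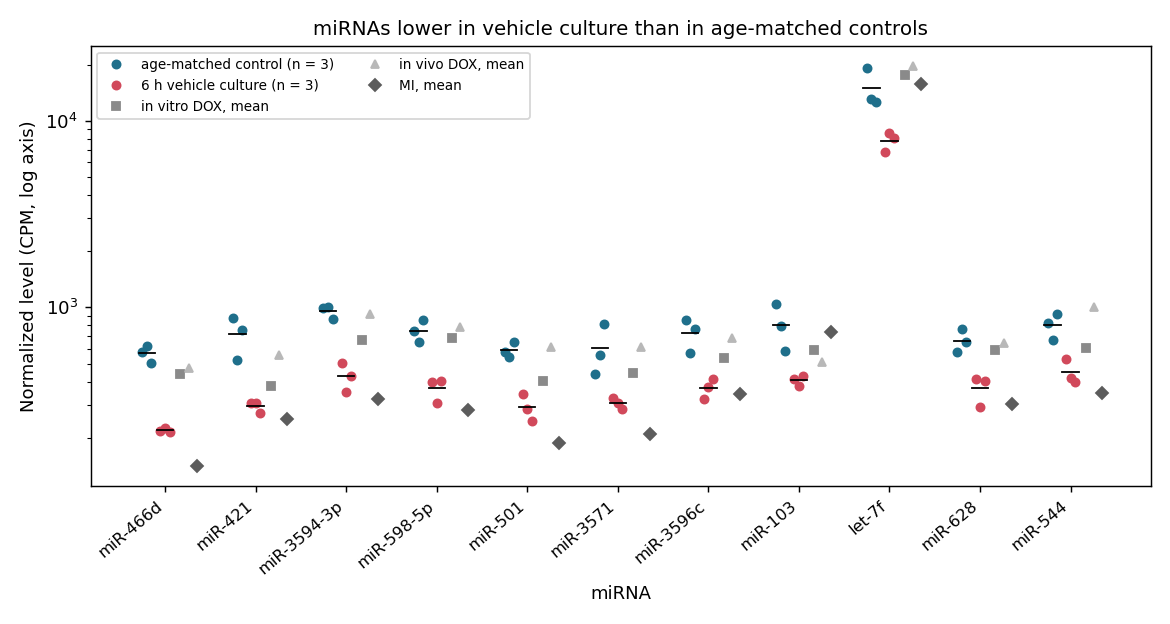
Level in CPM (log axis) of the 11 miRNAs called lower in vehicle cells, with a point for each of 3 control (blue) and 3 vehicle (red) lanes and a bar at each mean; grey symbols are the means of the DOX and MI groups. let-7f is the one with a mean over 1000 CPM, and the MI means are at or below the vehicle means for 9 of the 11.

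With TMM scaling, differences within a family lay on both sides of 0 for let-7 and miR-30. Of the 8 tested let-7 and miR-98 members, 1 was called by edgeR, against 18.3% of all tested miRNAs. The log2 differences were -0.93 for let-7f, -0.47 for let-7a, -0.23 for miR-98, 0.02 for let-7c, 0.04 for let-7d, 0.39 for let-7i, 0.45 for let-7b and 0.61 for let-7e. The family median was 0.03 against -0.11 for all tested. let-7a had 22414, 17571 and 20714 CPM in control lanes 1 to 3 and 14168, 15808 and 13960.0 CPM in vehicle lanes 1 to 3. let-7e had 2338, 1970.0 and 1939 CPM in control lanes 1 to 3 and 3329, 3240.5 and 2921 CPM in vehicle lanes 1 to 3. The lanes of the groups did not overlap for either, and with TMM scaling the directions were opposite. Neither passed edgeR's test (adjusted p = 0.256 and 0.153). With positive-control scaling both were above 0 (log2 0.35 for let-7a and 1.42 for let-7e), while let-7f stayed below (log2 -0.14). DESeq2 called let-7e higher (log2 0.83, adjusted p = 0.00842) beside let-7f lower, and let-7e also passed with positive-control scaling (0.0304). With the 6 lanes alone both passed (5.31e-06 and 2.27e-08), in a fit that called 67 of the 109 tested miRNAs. As the members differ by as little as 1 base, their probes may share signal, which was not tested.

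The miR-15 family, whose members repress cell-cycle and survival genes, had 4 tested members, of which edgeR called miR-322 higher. Over all tested miRNAs, edgeR called 18.3%, 8.26% were called higher, and 30.3% had an unadjusted p under 0.05. miR-195, above background in 0 control and 3 vehicle lanes, differed by log2 0.73 (SE 0.37, adjusted p = 0.183); it was called higher by DESeq2 (adjusted p = 0.0477), with positive-control scaling (0.0245) and with the 6 lanes alone (0.00219). miR-16 differed by log2 0.12 (SE 0.25, adjusted p = 0.779) and miR-15b by log2 0.09 (SE 0.29, adjusted p = 0.829). The miR-29 family, which represses collagen mRNAs, had no call among 3 by edgeR or DESeq2 and none at an unadjusted p under 0.05. Its member miR-29b had 9021, 7181 and 7206 CPM in control lanes 1 to 3 and 14245, 14399.6 and 13928 CPM in vehicle lanes 1 to 3, without overlap. Its difference of log2 0.86 (SE 0.71, adjusted p = 0.446) did not pass in the shared fit. With the 6 lanes alone its adjusted p was 2.38e-19. That fit called 67 of the 109 miRNAs, and its lanes differed within a group by little more than counting error. miR-29a had 73789, 68219 and 73111 CPM in control lanes 1 to 3 and 72654, 72071 and 71586 CPM in vehicle lanes 1 to 3, which overlapped, and miR-29c differed by log2 0.31 (SE 0.48, adjusted p = 0.68).

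The miR-30 family is abundant in heart muscle. None of its 5 tested members was called by edgeR or DESeq2, and 1, miR-30b-5p, had an unadjusted p under 0.05. Of all tested miRNAs, edgeR called 18.3%, and 30.3% had an unadjusted p under 0.05. miR-30e differed by log2 0.89 (SE 0.66, adjusted p = 0.384) and miR-30a by log2 0.67 (SE 0.51, adjusted p = 0.389), while miR-30c differed by log2 -0.04 (SE 0.26, adjusted p = 0.92), miR-30d by log2 -0.46 (SE 0.29, adjusted p = 0.278) and miR-30b-5p by log2 -0.61 (SE 0.29, adjusted p = 0.16). miR-30e had 1293, 1414 and 1739 CPM in control lanes 1 to 3 and 2987, 2970.4 and 2309 CPM in vehicle lanes 1 to 3, and miR-30a had 5638, 6688 and 6203 CPM in control lanes 1 to 3 and 10294, 9678 and 9563 CPM in vehicle lanes 1 to 3. Both were higher in each vehicle lane than in each control lane. With the 6 lanes alone miR-30a, miR-30e, miR-30b-5p and miR-30d passed, the last pair in the lower direction. That fit called 67 of all 109 tested miRNAs. With positive-control scaling all 5 members were above 0, from log2 0.19 for miR-30b-5p to 1.74 for miR-30e.

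**Figure D4:**
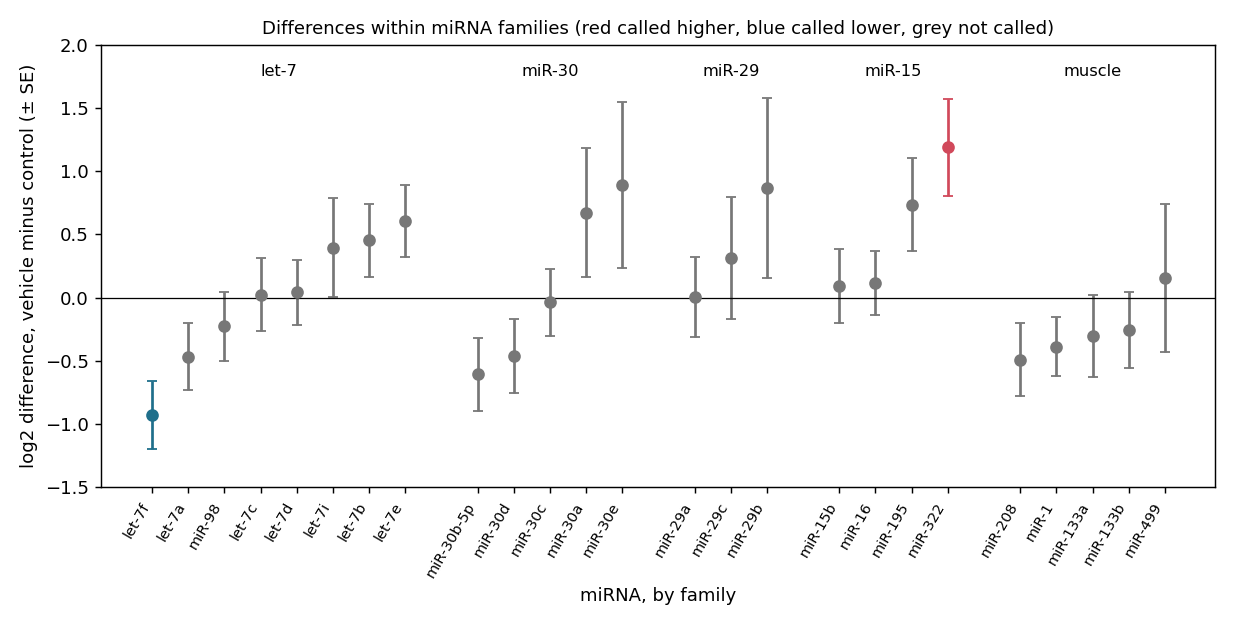
Log2 difference (vehicle minus control) with its SE from the TMM-scaled edgeR fit for members of the let-7, miR-30, miR-29 and miR-15 families and of the muscle list. Members range from -0.93 for let-7f to 0.61 for let-7e within the let-7 family, and miR-322 is the one called higher among those drawn; miR-208 is drawn from counts without the authors' correction for background.

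The muscle miRNAs check the cell type. miR-1 made up 25.3% to 25.6% of control counts and 19.5% to 20.9% of vehicle counts, and had 257586, 254652 and 254926 CPM in control lanes 1 to 3 and 187650.0, 195282 and 203336 CPM in vehicle lanes 1 to 3. All vehicle lanes were below all control lanes. It differed by log2 -0.39 (SE 0.23, adjusted p = 0.266) and was not called. The heart-specific miR-208, encoded in a myosin gene, is no check here. Its uncorrected counts gave 2035, 2351 and 2407 CPM in control lanes 1 to 3 and 1612, 1606 and 1627 CPM in vehicle lanes 1 to 3 and a difference of log2 -0.49 (SE 0.29, adjusted p = 0.257), but the authors' correction of its probe for background set it to 1 count in all 15 lanes. miR-133a, which shares transcripts with miR-1, differed by log2 -0.30 (SE 0.32, adjusted p = 0.531), miR-133b by log2 -0.26 (SE 0.30, adjusted p = 0.546) and miR-499, from the myosin gene Myh7b, by log2 0.15 (SE 0.58, adjusted p = 0.86). None of these 5 was called by edgeR or DESeq2 or had an unadjusted p under 0.05. Of all tested miRNAs, edgeR called 18.3%, and 30.3% had an unadjusted p under 0.05. With TMM scaling 4 of the 5 were on the lower side, with a list median log2 difference of -0.30. The lanes did not overlap for 4 of the 5, against 67% of all tested miRNAs. With the 6 lanes alone, where 67 of the 109 miRNAs were called, 4 passed. They were miR-1 (5.66e-08), miR-133a (0.00131) and miR-208 (6.24e-04) lower and miR-499 (0.00744) higher. With housekeeping scaling miR-1 was called lower (log2 -0.80, adjusted p = 0.0452), while DESeq2 gave it log2 -0.17. With positive-control scaling all 5 were above 0, from log2 0.35 for miR-208 to 0.98 for miR-499, and none was called. On that scale miR-1 differed by log2 0.44, so the direction of the 4 on the lower side depended on the scaling. The summed level of the list, with the uncorrected miR-208 and the untested miR-206, was 352646 to 355164 CPM in control lanes and 281283 to 295477 CPM in vehicle lanes. miR-206 of skeletal muscle was not tested, with 14 to 45 counts in the 6 lanes.

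The lanes of the groups did not overlap in the summed level of the endothelial, fibroblast, leukocyte and smooth muscle marker lists, and overlapped in that of the erythroid list. Over all tested miRNAs, 18.3% were called and 8.26% were called higher, 30.3% had an unadjusted p under 0.05, and 67% had lanes without overlap. The endothelial list (miR-126, miR-10a-5p and miR-31 on the panel) summed to 20792 to 22654 CPM in control and 67245 to 71474 CPM in vehicle lanes, nearly all of it miR-126. The fibroblast list of 7, of which 5 were tested and 2 called higher, summed to 5913 to 6974 against 8809 to 9247 CPM, with miR-21 differing by log2 0.33 (SE 0.31, adjusted p = 0.491), miR-152 by log2 0.43 (SE 0.27, adjusted p = 0.278), and miR-214 at 2 to 16 counts. The leukocyte list of 6 on the panel summed to 6021 to 6219 against 10484 to 11393 CPM, with 3 tested and 1 called. The smooth muscle list was lower in vehicle lanes, at 52776 to 60533 CPM in control and 46562 to 50979 CPM in vehicle, with miR-145 at log2 -0.26 (SE 0.28, adjusted p = 0.542) and miR-143, its neighbour, at log2 0.29 (SE 0.34, adjusted p = 0.546), with 0 called by edgeR or DESeq2 and 0 at an unadjusted p under 0.05. With the 6 lanes alone both passed in these opposite directions (0.0072 and 0.00439), in a fit that called 67 of the 109 tested miRNAs. With positive-control scaling both were above 0 (log2 0.56 for miR-145 and 1.12 for miR-143). The erythroid list summed to 18357 to 21130 CPM in control and 20289 to 22373 CPM in vehicle lanes, with miR-16 as its one tested member. Its miR-451 and miR-144 had at most 17 counts in any lane, and all 8 miRNAs of the brain, liver and islet list were untested, with a sum of 919.5 to 1636 CPM in control and 722 to 759 CPM in vehicle lanes. The part of other cell types in the higher miRNAs was not tested.

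Of the remaining lists, the one for miRNAs induced by growth, calcium or inflammatory stimuli had 6 tested members, all with lanes higher in vehicle and without overlap, as were 30.3% of all tested miRNAs, and 1 called, miR-146a, against 18.3% of all tested. DESeq2 called 2, miR-146a and miR-181a (adjusted p = 0.0301), and with the 6 lanes alone all 6 were called, as were 67 of all 109 tested. Its median log2 difference was 0.57 against -0.11 for all tested. The activity-induced miR-132 had 138, 254 and 184 CPM in control lanes 1 to 3 and 279, 321 and 381 CPM in vehicle lanes 1 to 3 and differed by log2 0.72 (SE 0.41, adjusted p = 0.256). It was above background in 0 control and 2 vehicle lanes, and with background subtraction its log2 difference was 3.87 (adjusted p = 0.0501), so its size is not settled. miR-27a differed by log2 0.58 (SE 0.36, adjusted p = 0.278), miR-181a by log2 0.56 (SE 0.29, adjusted p = 0.19) and miR-23a by log2 0.39 (SE 0.29, adjusted p = 0.376). In the miR-23/24/27 clusters, transcribed as shared precursors, miR-27b differed by log2 0.41 (SE 0.37, adjusted p = 0.459), miR-23b by log2 -0.06 (SE 0.29, adjusted p = 0.885) and miR-24 by log2 -0.49 (SE 0.25, adjusted p = 0.201). Members of these clusters thus lay on both sides of 0 with TMM scaling. With positive-control scaling miR-23b (log2 0.75) and miR-24 (log2 0.34) were above 0 as well. The miR-17-92 and related clusters, known from cell proliferation, had no call among 6 tested by edgeR, 1 by DESeq2 and 1 at an unadjusted p under 0.05, with log2 differences from -0.25 for miR-17-5p to 0.57 for miR-19b. The miR-99/100 and miR-125 families had no call among 5 by edgeR or DESeq2 and none at an unadjusted p under 0.05. Such a p was reached by 30.3% of all tested miRNAs. Their log2 differences lay between -0.37 and -0.11 with TMM scaling, and between 0.45 and 0.72 with positive-control scaling. The lanes did not overlap for 4 of the 5, against 67% of all tested. With the 6 lanes alone 3 were called, as were 67 of all 109. The hypoxia-induced miR-210 had 908, 842 and 869 CPM in control lanes 1 to 3 and 831, 999.9 and 1056 CPM in vehicle lanes 1 to 3, which overlapped, and differed by log2 0.14 (SE 0.32, adjusted p = 0.779). Of the p53-responsive list, miR-34a differed by log2 -0.19 (SE 0.33, adjusted p = 0.704) and miR-194 by log2 -0.47 (SE 0.32, adjusted p = 0.314). miR-34a was above background in 1 control and 3 vehicle lanes, and miR-194 in 0 and 1, so neither difference is exact. The metabolic list had 1 call of 4, miR-103, and 2 at an unadjusted p under 0.05. The lanes did not overlap for 3 of the 4, and 3 were called with the 6 lanes alone. Its miR-22 differed by log2 -0.25 (SE 0.29, adjusted p = 0.546) and miR-378 by log2 0.08 (SE 0.32, adjusted p = 0.867). miR-26a and miR-26b differed by log2 -0.42 (SE 0.27, adjusted p = 0.279) and log2 -0.04 (SE 0.33, adjusted p = 0.928).

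Lists of dim miRNAs held few tested members. In the X-linked miR-532 cluster, miR-532-5p differed by log2 -0.68 (SE 0.24, adjusted p = 0.0513) beside the call of miR-501. In the Dlk1-Dio3 cluster 2 of 42 miRNAs were tested, miR-544, called lower, and miR-543 at log2 -0.16 (SE 0.34, adjusted p = 0.779). Of the repeat-derived and miR-290 clusters, miR-466c differed by log2 -0.82 (SE 0.30, adjusted p = 0.0536) and miR-290 by log2 -0.64 (SE 0.27, adjusted p = 0.111) beside the call of miR-466d. The values of miR-466c and miR-290 are from uncorrected counts, and the authors' correction of these probes for background set both to 1 count in all 6 lanes. None of the 5 miRNAs of the epithelial miR-200 family was tested.

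The levels of the called miRNAs in the other groups are given as a description, since contrasts with these groups share the vehicle or control lanes. Control cells had the lowest mean of the 5 groups for 6 of the 9 higher miRNAs, and for miR-126, miR-146a and miR-199a-3p all 3 control lanes lay below all 12 others. The mean of miR-126 was 21218 ± 1019 CPM in controls, 30796 ± 8563 in in vivo DOX, 69110.1 ± 2129 in vehicle, 81036 ± 11002 in in vitro DOX and 98515 ± 45419.7 in MI cells (SD, n = 3 each), and the MI lanes spanned those of vehicle and in vitro DOX. The mean of miR-1949 was 1731 ± 105 CPM in vehicle cells and between 293 (in vitro DOX) and 608 CPM (in vivo DOX) elsewhere, so vehicle cells were the group that stood apart. The mean of let-7f was 7827 ± 891 CPM in vehicle cells, the lowest of the 5 groups, and 14918 to 19678 CPM in the other 4. The names of the in vitro DOX lanes carry another number than the rest, taken here to be that of another cartridge.

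The authors' deposited quantile-normalized means are of these same groups, from a separate table for each group. They are therefore no independent check of direction. In them all 20 called miRNAs differed in the same direction, and 93 of 108 tested miRNAs with a mean did. The deposited mean of miR-126 was 6233 in vehicle and 2193 in control cells, and that of miR-1949 was 163 and 42.6. Scaling on the positive controls shifted the median of all tested miRNAs to 0.73, and scaling on the housekeeping mRNAs to -0.48. With those scalings 17 were called higher and 0 lower with positive controls, and 3 higher and 25 lower with housekeeping mRNAs. miR-1949, miR-126 and miR-199a-3p were called higher under every alternative that tested them, and miR-146a under all but housekeeping scaling (log2 1.08, adjusted p = 0.0825).

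**Figure D5:**
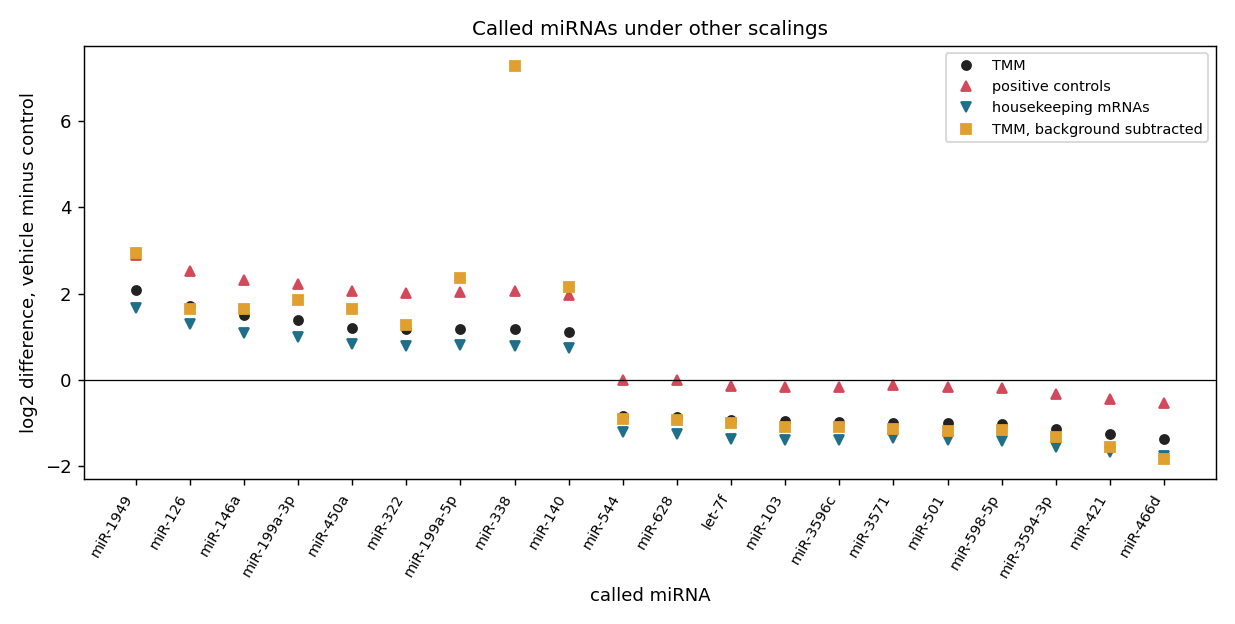
Log2 difference (vehicle minus control) of the 20 called miRNAs with TMM scaling (circles), positive-control scaling (upward triangles), housekeeping scaling (downward triangles) and background subtraction before TMM (squares). The 9 higher miRNAs are above 0.7 under all 4, while with positive controls the 11 lower ones lie between -0.53 and -0.01.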

How the data were processed

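MicroRNAs were counted by nCounter in 15 rat cardiomyocyte samples, 1 lane each, of which 3 vehicle and 3 control lanes were compared. All tests used the first deposited sheet, the authors' unnormalized barcode counts, which are whole numbers for every probe. Per the file headers, the authors' second sheet holds these counts after a share of the brightest positive control was subtracted from 3 probes (miR-208, miR-290 and miR-466c), which makes them estimated counts, and 21 other probes differ by zeros set to 1. Per the headers of the remaining sheets, the signal was then brought by the authors to equal positive controls and to equal miRNA totals. The authors' deposited group means are signal after quantile normalization. The build and software behind the deposited files are not given in the sources used here.

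A miRNA was tested when it was above the mean plus 2 SD of its lane's 8 negative controls in 3 or more of all 15 lanes (109 of 420 were). TMM-scaled counts were analysed in edgeR 4.0.16 (robust quasi-likelihood, R 4.3.3), with all 15 lanes and 1 mean per group. P-values were adjusted by Benjamini-Hochberg over all 109 miRNAs and called under 0.05. limma 3.58.1 (pseudocount 1) and DESeq2 1.42.0 served as alternatives, beside other scalings, filters, lanes left out and background subtraction. The procedure was tested on simulated data. Named are all called miRNAs, with lane values for those whose groups do not overlap, and tested members of 24 lists. Members and lists were chosen with earlier results of these data known. Lane values of other listed miRNAs (let-7a, let-7e, miR-29a, miR-29b, miR-30a, miR-30e, miR-1, miR-208, miR-132 and miR-210) were chosen after their values were seen. Lane depth was 36977 to 137746 miRNA counts, and the dim miRNAs rest on few counts.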

Additional observations from a re-analysis of the deposited data

How the results depend on the processing

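Against 20 calls, 9 higher and 11 lower, the counts (called, higher, lower) were 19, 13 and 6 with DESeq2, 14, 9 and 5 with total-count scaling, 17, 17 and 0 with positive-control scaling, 28, 3 and 25 with housekeeping scaling, 12, 8 and 4 with limma on the authors' sum-normalized signal, and 7, 6 and 1 after background subtraction. They were 26, 24 and 2 without a filter (420 tested), 4, 4 and 0 among the 67 miRNAs above background in all 6 lanes (edgeR, with 7 lower at an unadjusted p under 0.05), 67, 33 and 34 with the 2 groups alone, and 54, 25 and 29 without replicate 3 of in vitro DOX and of MI and replicate 1 of in vivo DOX. The share of calls that were higher was thus 45% with TMM, 68.4% with DESeq2, 64.3% with total counts, 66.7% with limma, 100% with positive controls and 10.7% with housekeeping mRNAs. Leaving out 1 lane gave 4 to 18 calls, 4 to 7 higher and 0 to 11 lower. The replicate numbers of the titles did not pair samples (correlation of deviations -0.07, -0.17 and -0.26); with the replicate block 19 were called, 9 higher and 10 lower. The counts with the authors' corrected counts, a background at 3 SD, at least 3 of the 6 lanes, no in vitro DOX group, a non-robust fit, and TMM on the 58 miRNAs above background in all lanes, chosen after seeing the data, were within 1.5 times of these. None of the 20 called miRNAs changed sign under any alternative that tested it. At 3 SD the lanes differed by 16.3 miRNAs above background, against 20 at 2 SD. Depth limits the dim miRNAs: lane backgrounds of 19.6 to 47.2 counts lie within the range of the 10 dim lower miRNAs.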
